A study of Mus musculus with 8 samples.

Results

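RNA levels were compared between 2 sorted populations of mouse bone marrow progenitors. The CD34bright population was sorted as KIT+ CD16/32- CD34bright CD41+ CD9+. The other was sorted as KIT+ CD16/32- CD34dim CD41- CD9-, named CD41/CD9-negative in what follows. Members were chosen by sort gate as the labels give it, which took 4 of the 8 libraries of the series, 2 from each population. All mice were wild-type C57BL/6, and the RNA came from primary bone marrow cells. The study resolved common myeloid progenitors into subpopulations by single-cell profiling and then isolated them in duplicate for bulk RNA sequencing. The remaining 4 libraries came from CD34dim CD41+ CD9+ cells parted by CD48 and were used only in alternative fits. The labels do not state age, sex or the number of mice, nor whether libraries of 1 population stem from different animals or sorts. Each p-value therefore reflects library-to-library spread that could be purely technical.

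Common myeloid progenitors are KIT-positive marrow cells classically placed upstream of granulocytes, monocytes, red cells and megakaryocytes. CD34 is a sialomucin of early progenitors and endothelium. CD41, encoded by Itga2b, is the integrin alpha chain of the platelet fibrinogen receptor and also marks early megakaryocyte-primed progenitors, and CD9 is a tetraspanin abundant on platelets, mast cells and basophils. Progenitors that lack CD41 and express Flt3 are generally richer in lymphoid, dendritic and monocyte potential, whereas GATA2 and its partners are known for mast cell, basophil, megakaryocyte and stem cell programmes.

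Of 24411 genes in the files, 12428 passed the filter on low counts and 8781 had no count in any of the 4 libraries. edgeR's quasi-likelihood test called 1081 genes (8.7% of those tested) at a Benjamini-Hochberg adjusted p below 0.05. Libraries of the populations did not overlap in 1078 of the 1081 called genes, and in 51.8% of all tested genes. Of the called genes, 376 (3.03%) were higher in CD34bright cells and 705 (5.67%) in CD41/CD9-negative cells. The median size of the log2 fold change was 2.02 over called genes and 0.44 over all tested genes. With the spread estimated over all 8 libraries, 111 genes (0.842%) were called, 35 (0.266%) higher in CD34bright cells and 76 (0.577%) higher in CD41/CD9-negative cells, and all 111 were among the 1081. That pooled biological coefficient of variation was 49.8%, against 31.8% over the 4 libraries. Leaving out a library moved the count to 692 without CD34bright replicate 1 and to 2111 without CD41/CD9-negative replicate 1, with the lone library of a population assumed to vary like the others. Levels below are CPM, counts scaled to the normalized library total, given as replicate 1 and replicate 2, and each log2 fold change is CD34bright over CD41/CD9-negative with its standard error.

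**Figure D1:**
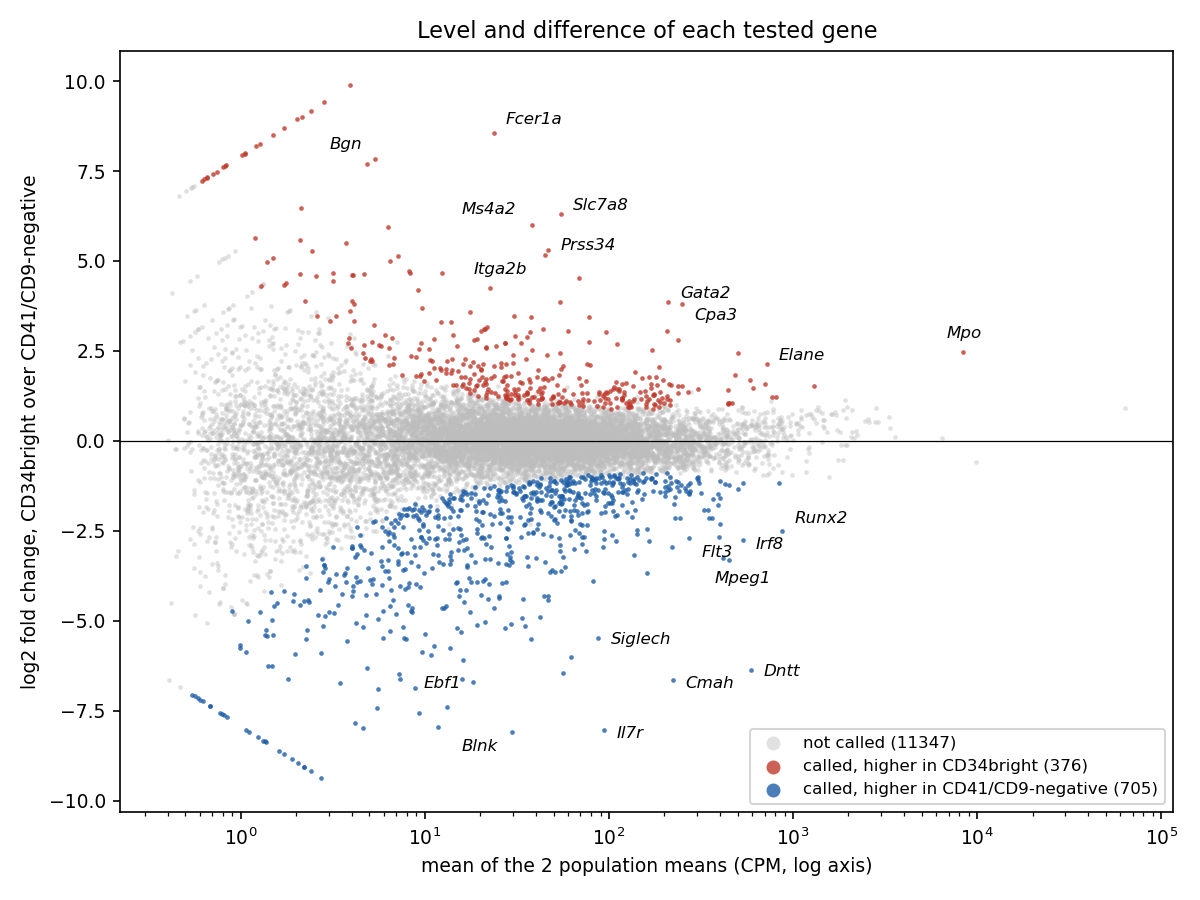
Each point is 1 of the tested genes, with the mean of the population means in CPM on a log axis and the log2 fold change, CD34bright over CD41/CD9-negative, on the other. The 376 genes called higher in CD34bright cells (red) and the 705 called higher in CD41/CD9-negative cells (blue) surround 11347 genes not called (grey), and the straight lines at the left are genes with no count in one population, whose fitted values are not bounds.

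The 4 libraries held 12073092 to 20632005 expected counts. Spearman's correlation of CPM across tested genes was 0.974 between the CD34bright libraries and 0.958 between the CD41/CD9-negative libraries, and from 0.904 to 0.923 across populations, as a description of libraries that share gene lengths and chemistry. The share of counts on the ribosomal RNA precursor Rn45s was 6.18% and 9.93% in CD34bright libraries and 7.24% and 1.86% in CD41/CD9-negative libraries. Neither Rn45s, Malat1, Neat1 nor Xist was called. In sorted bulk samples, fewer cells of a type and less RNA per cell cannot be told apart.

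The genes of the sort markers served as a check of the labels and are no finding. Itga2b was at 73.3 and 101 CPM in CD34bright libraries and at 2.76 and 2.12 CPM in CD41/CD9-negative libraries (log2 fold change 5.15 ± 0.39, adjusted p = 2.8e-07). Cd9 was at 39.5 and 55.2 CPM against 2.76 and 11.7 CPM (2.71 ± 0.51, adjusted p = 0.00173, and 0.124 over all 8 libraries). Both followed the gates. Cd34 was at 494 and 448 CPM in CD34bright libraries and at 232 and 386 CPM in CD34dim CD41/CD9-negative libraries. The populations did not overlap in Cd34, as in 51.8% of all tested genes, but the log2 fold change of 0.61 ± 0.31 did not pass the test (adjusted p = 0.26). Kit, the stem cell factor receptor and a gate shared by both populations, was at 588 and 596 CPM against 234 and 349 CPM (1.02 ± 0.3, adjusted p = 0.0402). The Kit call was lost over all 8 libraries (adjusted p = 0.343) and without CD34bright replicate 1 (adjusted p = 0.136), CD34bright replicate 2 (0.115) or CD41/CD9-negative replicate 1 (0.144). RNA of the gated-out Fc receptors was present in every library, with Fcgr3 at 45.5 and 28.5 CPM against 14.9 and 6.29 CPM (adjusted p = 0.0118, 0.135 without CD34bright replicate 1) and Fcgr2b at 39.9 and 30.3 CPM against 26.2 and 23 CPM, not called. Reads of these near-identical receptors can be divided between them, so both levels are uncertain. Cd48, not a gate here, was at 203 and 152 CPM against 215 and 239.5 CPM and was not called.

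Lymphoid progenitor genes were higher in CD41/CD9-negative cells. Of 22 members, all tested, 17 were called higher there and none higher in CD34bright cells, with a median log2 fold change of -1.80 against 0.0011 over all tested genes, and 7 of the 17 were also called over all 8 libraries. This list and the others below carry no test of their own. Their counts of called members stand beside 8.7% of all tested genes called, 3.03% higher in CD34bright and 5.67% higher in CD41/CD9-negative cells. Il7r, the interleukin 7 receptor alpha chain that sustains early B and T cell precursors, was at 0.4 and 1.1 CPM in CD34bright libraries and at 194 and 182 CPM in CD41/CD9-negative libraries (-8.02 ± 0.45, adjusted p = 7.51e-09). Dntt, the template-free polymerase that adds bases at V(D)J junctions, was at 17.9 and 10.7 CPM against 1463 and 884 CPM (-6.35 ± 0.42). Ly6d, a surface marker of B-biased lymphoid progenitors, was at 0.949 and 1.66 CPM against 148 and 74.8 CPM (-6.43 ± 0.46). The populations did not overlap in these genes, as in 51.8% of all tested genes. The genes were picked among the called ones, so this separation is no finding. Flt3, the receptor tyrosine kinase of lymphoid and dendritic progenitors, was at 81 and 65.2 CPM against 556 and 393 CPM (-2.7 ± 0.31, adjusted p = 1.43e-05).

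The recombinase genes were included in this set. Rag1 was at 0.4 and 6.01 CPM against 64.4 and 65.2 CPM (-4.38 ± 0.69, adjusted p = 0.000352), with the CD34bright libraries far apart from each other. Rag2 was at 6.59 and 8.57 CPM against 107 and 73.8 CPM (-3.58 ± 0.35), but it overlaps B230118H07Rik, which held 1280 counts against 2587 for Rag2, and its level is uncertain in unstranded libraries. Satb1, a chromatin organiser of lymphoid genes, was at 133 and 144 CPM against 583 and 458 CPM (-1.91 ± 0.29), and Notch1, the receptor that directs T cell commitment, was at 85.5 and 82.2 CPM against 499 and 248 CPM (-2.15 ± 0.33, adjusted p = 0.000289, and 0.0533 over all 8 libraries). The 5 members not called were Cd27, Lmo4, Sox4, Tcf12 and Tcf3. Cd27 was at 253 and 312 CPM against 248 and 159 CPM, and Tcf3, which encodes the E2A proteins, at 62.9 and 82.3 CPM against 79.4 and 69.1 CPM. Bcl11a and Ikzf1 lost their call without CD34bright replicate 1 (adjusted p = 0.39 and 0.183), and Foxo1, Gpr183 and Ikzf1 without CD34bright replicate 2 (0.0695, 0.0536 and 0.0728). Gpr183 overlaps Ubac2 and its level is uncertain.

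B-lineage genes showed the largest median difference of the lists described here, -4.71 on the log2 scale. Of 16 members, 14 were called higher in CD41/CD9-negative cells and none in the other direction, 3 of them also over all 8 libraries. Ebf1, the factor that specifies the B lineage, was at 0.4 and 0.276 CPM in CD34bright libraries and at 31 and 41.7 CPM in CD41/CD9-negative libraries (-6.69 ± 0.54, adjusted p = 4.11e-07). Pax5, its partner in B cell commitment, had no count in either CD34bright library and stood at 6.89 and 1.89 CPM in the others, at least 50.5-fold higher with a floor of 3 counts over the population. Blnk, the adaptor below the B cell receptor, was at 0.05 and 0.414 CPM against 63.2 and 55 CPM (-8.09 ± 0.59). All of these were at or near 0 in CD34bright libraries. They passed the filter on low counts only through the CD41/CD9-negative libraries, so their direction was fixed beforehand and is no finding. Among surrogate light chain genes, Igll1 was called at 0.2 and 0.967 CPM against 5.97 and 9.83 CPM (adjusted p = 0.00913) while Vpreb1 was at 2.4 and 0.484 CPM against 1.3 and 1.57 CPM and was not. Markers of mature B and plasma cells had 6 of 9 members in the files, of which Sdc1 (0.999 and 1.52 CPM against 38.6 and 29 CPM) and Ms4a1 (0.05 and 0.414 CPM against 7.28 and 5.03 CPM) were called higher in CD41/CD9-negative cells. Jchain was at 0.749 and 4.84 CPM against 0.613 and 0 CPM and was not called, and the summed level of the list ran from 162.3 to 200.9 CPM in CD34bright and from 207.4 to 233.9 CPM in CD41/CD9-negative libraries. The part of such cells in the B-lineage difference was not tested. Without CD34bright replicate 1, Igll1, Ms4a1 and Bst1 lost their call (adjusted p = 0.0905, 0.063 and 0.0799), and without CD41/CD9-negative replicate 1 so did Bst1 (0.0977). DESeq2 did not call Cd79a (adjusted p = 0.292) or Pou2af1 (0.217).

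The promoter of Blnk is shown because its list held the most matches to the E-box bound by E2A proteins. The 250 bases before the start site come from RefSeq, build GRCm38.p6, minus strand of chr19:40994222-40994471, with the match to CAGGTG or its reverse complement in capitals.
Blnk: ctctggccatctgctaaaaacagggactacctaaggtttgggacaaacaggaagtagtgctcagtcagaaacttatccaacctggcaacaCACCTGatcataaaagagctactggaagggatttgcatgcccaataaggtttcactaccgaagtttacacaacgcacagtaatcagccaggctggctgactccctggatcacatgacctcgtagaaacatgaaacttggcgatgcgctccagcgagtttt
Promoters were found for 11 of the 16 B-lineage genes, 12 windows in all, and 7 of them (58.3%) held CAGGTG on either strand, against 15.1% of the promoters of all tested genes and 17.2% of all promoters in the table. The promoters searched were 32851, each over 250 bases before the start, and no motif searched here is contained in another. Of the genes called higher in CD41/CD9-negative cells as a whole, 17.3% of 738 promoters held it.

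Genes of T, natural killer and innate lymphoid cells were less uniform. Of 20 members, 13 passed the filter, 5 were called higher in CD41/CD9-negative cells and 1, Nkg7, higher in CD34bright cells. Lck, the kinase that starts T cell receptor signalling, was at 2.9 and 2.42 CPM against 43 and 40.4 CPM (-3.96 ± 0.41, adjusted p = 5.04e-06). Cd7 was at 2.05 and 6.56 CPM against 96.2 and 73.1 CPM (-4.32 ± 0.46), and Klrd1, a subunit of a natural killer receptor, at 0.35 and 1.66 CPM against 28.5 and 20.2 CPM. Tcf7, the T cell commitment factor, was at 3.05 and 2.42 CPM against 66.9 and 12 CPM (-3.84 ± 0.61), with the CD41/CD9-negative libraries far apart. Its locus overlaps Skp1a, which held 7056 counts against 1123, so its level is uncertain. The defining T and natural killer genes Cd3d, Cd3g, Eomes, Ncr1, Prf1, Ptcra and Tbx21 were too low to be tested. Nkg7, a cytotoxic granule protein that myeloid granule progenitors also express, was at 328 and 258 CPM against 60.6 and 41.6 CPM (2.52 ± 0.3).

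Kinases and adaptors of antigen receptor signalling followed the same direction. Of 25 members, 13 were called higher in CD41/CD9-negative cells and none in CD34bright cells, with a median log2 fold change of -1.34 and 4 also called over all 8 libraries. The list shares Blk, Blnk and Lck with those above. Fgr, a SRC family kinase, was at 0.949 and 2.49 CPM against 69.5 and 44.7 CPM (-5.08 ± 0.49, adjusted p = 2.4e-06). Rasgrp3, which activates RAS downstream of the B cell receptor, was at 0.2 and 0.0691 CPM against 24.4 and 10.7 CPM (-6.86 ± 0.78). Zap70 had no count in the CD34bright libraries and 1.61 and 3.38 CPM in the others (at least 28.7-fold). Zap70 lost its call without CD34bright replicate 1 (adjusted p = 0.124), CD34bright replicate 2 (0.0959) or CD41/CD9-negative replicate 2 (0.0649), Fyn without the first of these (0.147), Malt1 without the second (0.0988), and Lyn without either (0.244 and 0.19). General kinases of the pathway had log2 fold changes near 0, with Syk at 209 and 182 CPM against 238 and 145 CPM and Btk at 79.5 and 75 CPM against 65.9 and 90.7 CPM, neither called. Of 11 tested end-joining genes, which complete recombination, 1 was called (9.09%, beside 8.7% of all tested genes). This was Dclre1c, which encodes the hairpin-opening nuclease Artemis, higher in CD41/CD9-negative cells (39.6 and 55.8 CPM against 122 and 119 CPM, adjusted p = 0.00612, and 0.154 without CD34bright replicate 1), and its level is uncertain because it overlaps Suv39h2.

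Dendritic cell genes formed the second broad difference. Of 20 members, 19 were tested and 17 were called higher in CD41/CD9-negative cells, with a median log2 fold change of -3.25, and 7 of them also over all 8 libraries. Siglech, a surface receptor of plasmacytoid dendritic cells, was at 1.3 and 6.63 CPM in CD34bright libraries and at 194 and 147 CPM in CD41/CD9-negative libraries (-5.46 ± 0.53, adjusted p = 3.01e-06). Spib, a transcription factor of plasmacytoid dendritic and B cells, was at 0.949 and 2.35 CPM against 98.8 and 48.1 CPM (-5.51 ± 0.5). Itgax, the CD11c integrin chain, was at 4 and 4.42 CPM against 82.9 and 95.9 CPM (-4.41 ± 0.35). Genes of both plasmacytoid and conventional dendritic cells were among those called. Clec9a, a receptor for dead cells on conventional dendritic cells, was at 4.65 and 10.7 CPM against 55.5 and 89.5 CPM (-3.25 ± 0.42, adjusted p = 5.18e-05), and Ccr9, a gut-homing chemokine receptor also carried by plasmacytoid precursors, at 3.5 and 1.93 CPM against 98.5 and 65.7 CPM. Of markers of mature conventional cells, Zbtb46 at 0.649 and 0 CPM against 4.29 and 4.56 CPM and Xcr1 at 0.35 and 0.76 CPM against 3.22 and 1.1 CPM were not called, and Batf3 was too low to be tested. Zbtb46 overlaps Lime1, which leaves its level uncertain. Without CD34bright replicate 1, Cd209a and Cd300c lost their call (adjusted p = 0.271 and 0.106), and without CD34bright replicate 2, Bst2, Clec10a and Ly6c2 did (0.135, 0.272 and 0.157).

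The Siglech promoter is shown with its E-box match in capitals, plus strand of chr7:55767934-55768183, RefSeq GRCm38.p6.
Siglech: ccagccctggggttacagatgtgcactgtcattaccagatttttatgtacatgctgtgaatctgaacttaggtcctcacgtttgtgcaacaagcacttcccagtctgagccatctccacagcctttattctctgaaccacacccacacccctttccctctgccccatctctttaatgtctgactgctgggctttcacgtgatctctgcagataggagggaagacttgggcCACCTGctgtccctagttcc
Of 19 promoters of dendritic genes, 6 (31.6%) held the E-box, 6 (31.6%) the RUNX motif TGTGGT against 11.2% over all tested genes, and 4 (21.1%) the PU.1 motif GAGGAAG against 11%.

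Antigen presentation genes differed in fewer members. Among 10 MHC class II genes, 3 were called higher in CD41/CD9-negative cells: H2-Ob at 35.8 and 45 CPM against 253 and 232 CPM (-2.59 ± 0.29), Cd74 at 20.9 and 61.9 CPM against 233 and 115 CPM (-2.08 ± 0.43) and H2-Aa at 17.2 and 32.6 CPM against 102 and 62.2 CPM (-1.72 ± 0.36). H2-Ob encodes a chain of the DO chaperone of B and dendritic cells, and Cd74 the invariant chain. H2-Aa lost its call without CD34bright replicate 1 (adjusted p = 0.0736). H2-Ab1 was at 36.2 and 67.3 CPM against 58.4 and 53.9 CPM, and Ciita, the master activator of these genes, at 0.749 and 3.18 CPM against 7.96 and 5.5 CPM, neither called. Members of this family can share reads, and Ciita overlaps Dexi.

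Monocyte genes also ran higher in CD41/CD9-negative cells. Of 20 members, 19 were tested, 10 were called higher there and none in CD34bright cells (median -1.30), 2 of them also over all 8 libraries. Mpeg1, which encodes the pore-forming perforin-2, was at 88.5 and 68 CPM against 856 and 646 CPM (-3.26 ± 0.32, adjusted p = 3.14e-06). Cybb, the catalytic subunit of the phagocyte oxidase, was at 15 and 13.6 CPM against 135 and 93.7 CPM (-3 ± 0.32), and Klf4, a monocyte factor, at 14.5 and 25.7 CPM against 135 and 86.3 CPM (-2.46 ± 0.35). Csf1r, the receptor for macrophage colony-stimulating factor, was at 58.6 and 60.7 CPM against 149 and 109.9 CPM (-1.12 ± 0.29, adjusted p = 0.0186), and was not called without CD34bright replicate 1 (0.164), CD34bright replicate 2 (0.127) or CD41/CD9-negative replicate 1 (0.0556). F13a1 and Ms4a6c lost their call without CD34bright replicate 2 (0.146 and 0.0553). Lyz2 at 270.3 and 207 CPM against 478 and 121 CPM and Cd14 at 2.3 and 1.86 CPM against 6.59 and 5.27 CPM were not called. Of 10 macrophage markers, 8 were tested and 1, Cd163, was called (7.04 and 5.8 CPM against 20.4 and 28.7 CPM, higher in CD41/CD9-negative cells, adjusted p = 0.00657, and 0.053 without CD34bright replicate 2). Of the 8 tested, 6 had a positive log2 fold change (median 0.79), among them the complement genes C1qb, at 2.5 and 1.86 CPM in CD34bright libraries against 0.23 and 0 CPM (4.14 ± 1.38, adjusted p = 0.0729), and C1qc, at 0.749 and 0.898 CPM against 0.23 and 0 CPM (adjusted p = 0.327), neither called. Their lower levels rest on 3 counts each. The share of tested macrophage markers called was 12.5%, beside 8.7% of all tested genes. C1qa and Timd4 were at or near 0 in every library, and the summed level of the macrophage list was 31.68 and 23.56 CPM in CD34bright libraries and 37.83 and 38.14 CPM in the others.

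Basophil and mast cell genes had the highest median of the lists described here on the CD34bright side. Of 20 members of a basophil, mast cell and eosinophil list, 15 were tested, 11 were called higher in CD34bright cells and 1 in CD41/CD9-negative cells, with a median log2 fold change of 3.48, and 5 were also called over all 8 libraries. Fcer1a, the alpha chain that binds IgE on these cells, was at 28.6 and 65.6 CPM in CD34bright libraries and at 0.153 and 0.0786 CPM in CD41/CD9-negative libraries (adjusted p = 3.51e-07). The lower level rests on 3 counts, and the ratio of 379 carries an exact 95% interval of 129.5 to 1841 for counting error only. Fcer1a passed the filter on low counts only through the CD34bright libraries, so its direction is no finding. Ms4a2, the beta chain of the same receptor, was at 67.5 and 82.8 CPM against 1.38 and 0.944 CPM (6 ± 0.42). Fcer1g, the gamma chain, which many myeloid Fc receptors share, ran the other way at 103 and 102 CPM against 263 and 287 CPM (-1.42 ± 0.27, adjusted p = 0.00217). The 3 receptor chains therefore did not share a direction. Cpa3, the mast cell carboxypeptidase, was at 384 and 549 CPM against 43.3 and 23.1 CPM (3.81 ± 0.36), and Hdc, which makes histamine, at 116 and 85.2 CPM against 6.74 and 7.24 CPM (3.85 ± 0.34). The basophil proteases Prss34 (95.5 and 86.2 CPM against 4.44 and 0.157 CPM) and Mcpt8 (60.8 and 50.9 CPM against 2.99 and 7 CPM) were both called. Of the eosinophil granule genes, Prg2 was called at 39.8 and 28.1 CPM against 9.27 and 0.157 CPM (adjusted p = 0.0314, but 0.418 by DESeq2), and Epx was not, nor was the interleukin 5 receptor gene Il5ra. The mast cell tryptases Tpsab1 and Tpsb2 had no count in any of the 4 libraries, and the mast cell chymase Cma1 had at most 0.15 CPM.

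Promoters of Ms4a2, Fcer1a and Cpa3 are shown for this list, chosen after their matches were seen like the others here, with matches to the GATA motif AGATAA, or its reverse complement, in capitals, each over the 250 bases before the RefSeq start site in GRCm38.p6. Ms4a2 lies on the minus strand at chr19:11623720-11623969, Fcer1a on the minus strand at chr1:173227230-173227479 and Cpa3 on the minus strand at chr3:20242182-20242431.
Ms4a2: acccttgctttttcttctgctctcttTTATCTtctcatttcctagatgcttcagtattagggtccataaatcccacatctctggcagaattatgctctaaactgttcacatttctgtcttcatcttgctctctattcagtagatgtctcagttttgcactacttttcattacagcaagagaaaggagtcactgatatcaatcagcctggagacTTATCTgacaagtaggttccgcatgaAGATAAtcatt
Fcer1a: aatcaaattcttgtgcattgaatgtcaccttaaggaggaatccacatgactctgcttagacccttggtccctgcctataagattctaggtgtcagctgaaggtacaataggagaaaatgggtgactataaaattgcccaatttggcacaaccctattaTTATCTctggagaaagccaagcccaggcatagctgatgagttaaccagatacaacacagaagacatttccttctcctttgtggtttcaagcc
Cpa3: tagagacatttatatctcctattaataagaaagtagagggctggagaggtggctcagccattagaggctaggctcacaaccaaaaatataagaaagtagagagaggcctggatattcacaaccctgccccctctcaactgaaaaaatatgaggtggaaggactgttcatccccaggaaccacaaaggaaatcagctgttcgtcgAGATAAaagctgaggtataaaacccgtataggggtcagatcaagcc
The Ms4a2 window held 3 matches, and those of Fcer1a and Cpa3 held 1 each. Of 21 promoters from 17 of the 20 list members, 9 (42.9%) held the GATA motif, against 6.17% over all tested genes and 9.99% of all promoters in the table. Over the whole set called higher in CD34bright cells the share was 9.25% of 411 promoters, and over the set called higher in CD41/CD9-negative cells 6.5% of 738. A match is a description of the sequence and not of binding.

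The 5 motifs searched, on both strands, were AGATAA for GATA factors, GAGGAAG for PU.1, TGTGGT for RUNX factors, CAGGTG for E2A and CCCNNGGG for EBF. The megakaryocyte and platelet list held the GATA motif in 19% of 21 promoters, against 6.17% over all tested genes. It held the PU.1 motif in 28.6%, against 11%. The lymphoid progenitor list held the E-box in 16.2% of 37, close to 15.1% over all tested genes. Of those 37 windows, 9 belong to Arpp21 and some of these overlap each other, so they are not separate promoters.

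**Figure D2:**
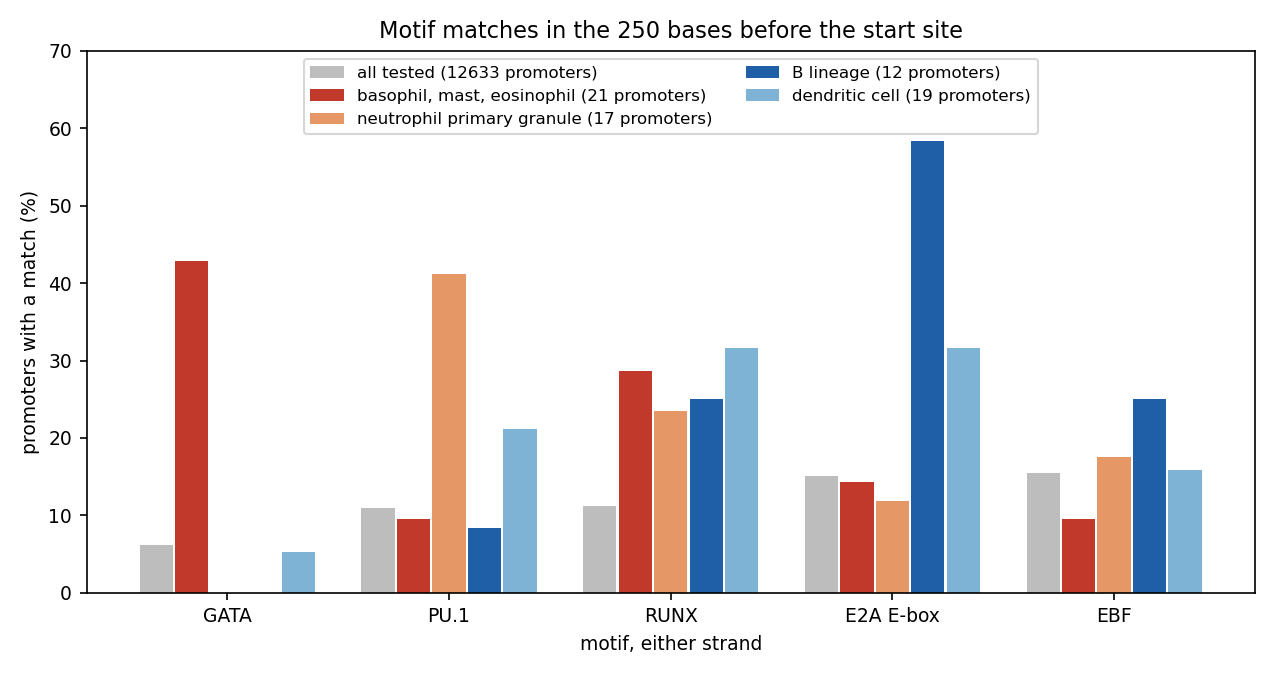
Bars give the percentage of promoters with at least 1 match on either strand in the 250 bases before the start site, for 5 motifs in all tested genes and in 4 gene lists, whose promoters number 12 to 21. The GATA motif reached 42.9% in the basophil, mast cell and eosinophil list, the PU.1 motif 41.2% in the neutrophil granule list and the E-box 58.3% in the B-lineage list, against 6.17%, 11% and 15.1% over all tested genes.

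Primary granule genes of neutrophil progenitors were higher in CD34bright cells. Of 18 members, 11 were called higher there and 1, Fcnb, higher in CD41/CD9-negative cells, with a median log2 fold change of 1.56, and 1, Ap3s1, was called over all 8 libraries. Ap3s1 overlaps Atg12, so its level is uncertain. Mpo, myeloperoxidase, was at 15920 and 12500 CPM in CD34bright libraries and at 3023 and 2126 CPM in CD41/CD9-negative libraries (2.46 ± 0.43, adjusted p = 0.000993, and 0.216 over all 8 libraries). The serine proteases Elane, at 1001 and 1337 CPM against 268 and 266 CPM, Ctsg, at 1056 and 634 CPM against 168 and 142 CPM, and Prtn3, at 1030 and 489 CPM against 286 and 140.1 CPM, were called with it. All 4 were detected in every library, so these were differences of degree. Ms4a3, a marker of granulocyte-monocyte committed cells, was at 225 and 120.1 CPM against 24.3 and 18.1 CPM (3.02 ± 0.35). The regulators Cebpa (68.7 and 48.3 CPM against 15.8 and 8.26 CPM), Cebpe (12.2 and 7.32 CPM against 2.76 and 0.315 CPM) and Gfi1 (55.6 and 42.3 CPM against 16.6 and 23.8 CPM) were called in the same direction. Csf3r, the receptor for granulocyte colony-stimulating factor, was at 169 and 168 CPM against 72.6 and 136 CPM and was not called. Without CD34bright replicate 1 the calls of Prtn3, Cebpe and Gfi1 were lost (adjusted p = 0.0508, 0.342 and 0.245), and without CD41/CD9-negative replicate 2 that of Cebpe (0.0658). Fcnb was not called on leaving out either CD34bright library (0.0795 and 0.119) or without CD41/CD9-negative replicate 1 (0.116). The summed CPM of the list was 21450 and 17480 in CD34bright libraries against 4800 and 3716.

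The Mpo promoter is shown for its PU.1 motif matches, in capitals, plus strand of chr11:87793534-87793783, RefSeq GRCm38.p6.
Mpo: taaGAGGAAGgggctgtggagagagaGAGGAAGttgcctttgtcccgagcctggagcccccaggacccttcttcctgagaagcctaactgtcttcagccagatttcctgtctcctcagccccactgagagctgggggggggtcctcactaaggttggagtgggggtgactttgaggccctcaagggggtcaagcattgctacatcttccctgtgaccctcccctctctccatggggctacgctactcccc
Of 17 promoters from 15 of the 18 list members, 7 (41.2%) held GAGGAAG on either strand, against 11% over all tested genes. None held AGATAA, against 6.17% over all tested genes, and 17 promoters are too few to read an absence from. None of the 5 promoters shown before that of Mpo held a match to GAGGAAG.

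Genes of mature neutrophils behaved otherwise. Of 10 members, S100a8, S100a9 and Retnlg were called higher in CD41/CD9-negative cells, and each lost its call without replicate 1 of that population. S100a9 was at 18.3 and 21.6 CPM in CD34bright libraries and at 223 and 12.7 CPM in CD41/CD9-negative libraries, and S100a8 at 9.14 and 13.8 CPM against 121 and 11.2 CPM, so the populations overlapped in both. Without it the adjusted p was 0.958 for S100a8, 0.325 for S100a9 and 0.429 for Retnlg, the log2 fold changes of S100a8 and S100a9 changed sign, and the median of the list went from -2.30 to 0.83. DESeq2 and limma-voom did not call S100a8 (adjusted p = 0.279 and 0.099) or S100a9 (0.345 and 0.216). The summed level of the list was 126.7 and 161.0 CPM in CD34bright libraries and 683.1 and 48.6 CPM in CD41/CD9-negative libraries. The part of mature neutrophil RNA in the other differences was not tested. Without that library 2111 genes were called. Cxcr2, the interleukin 8 receptor of neutrophils and the remaining called member, was higher in CD34bright cells at 54.1 and 84.4 CPM against 8.12 and 4.64 CPM (3.44 ± 0.4, adjusted p = 1.49e-05).

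**Figure D3:**
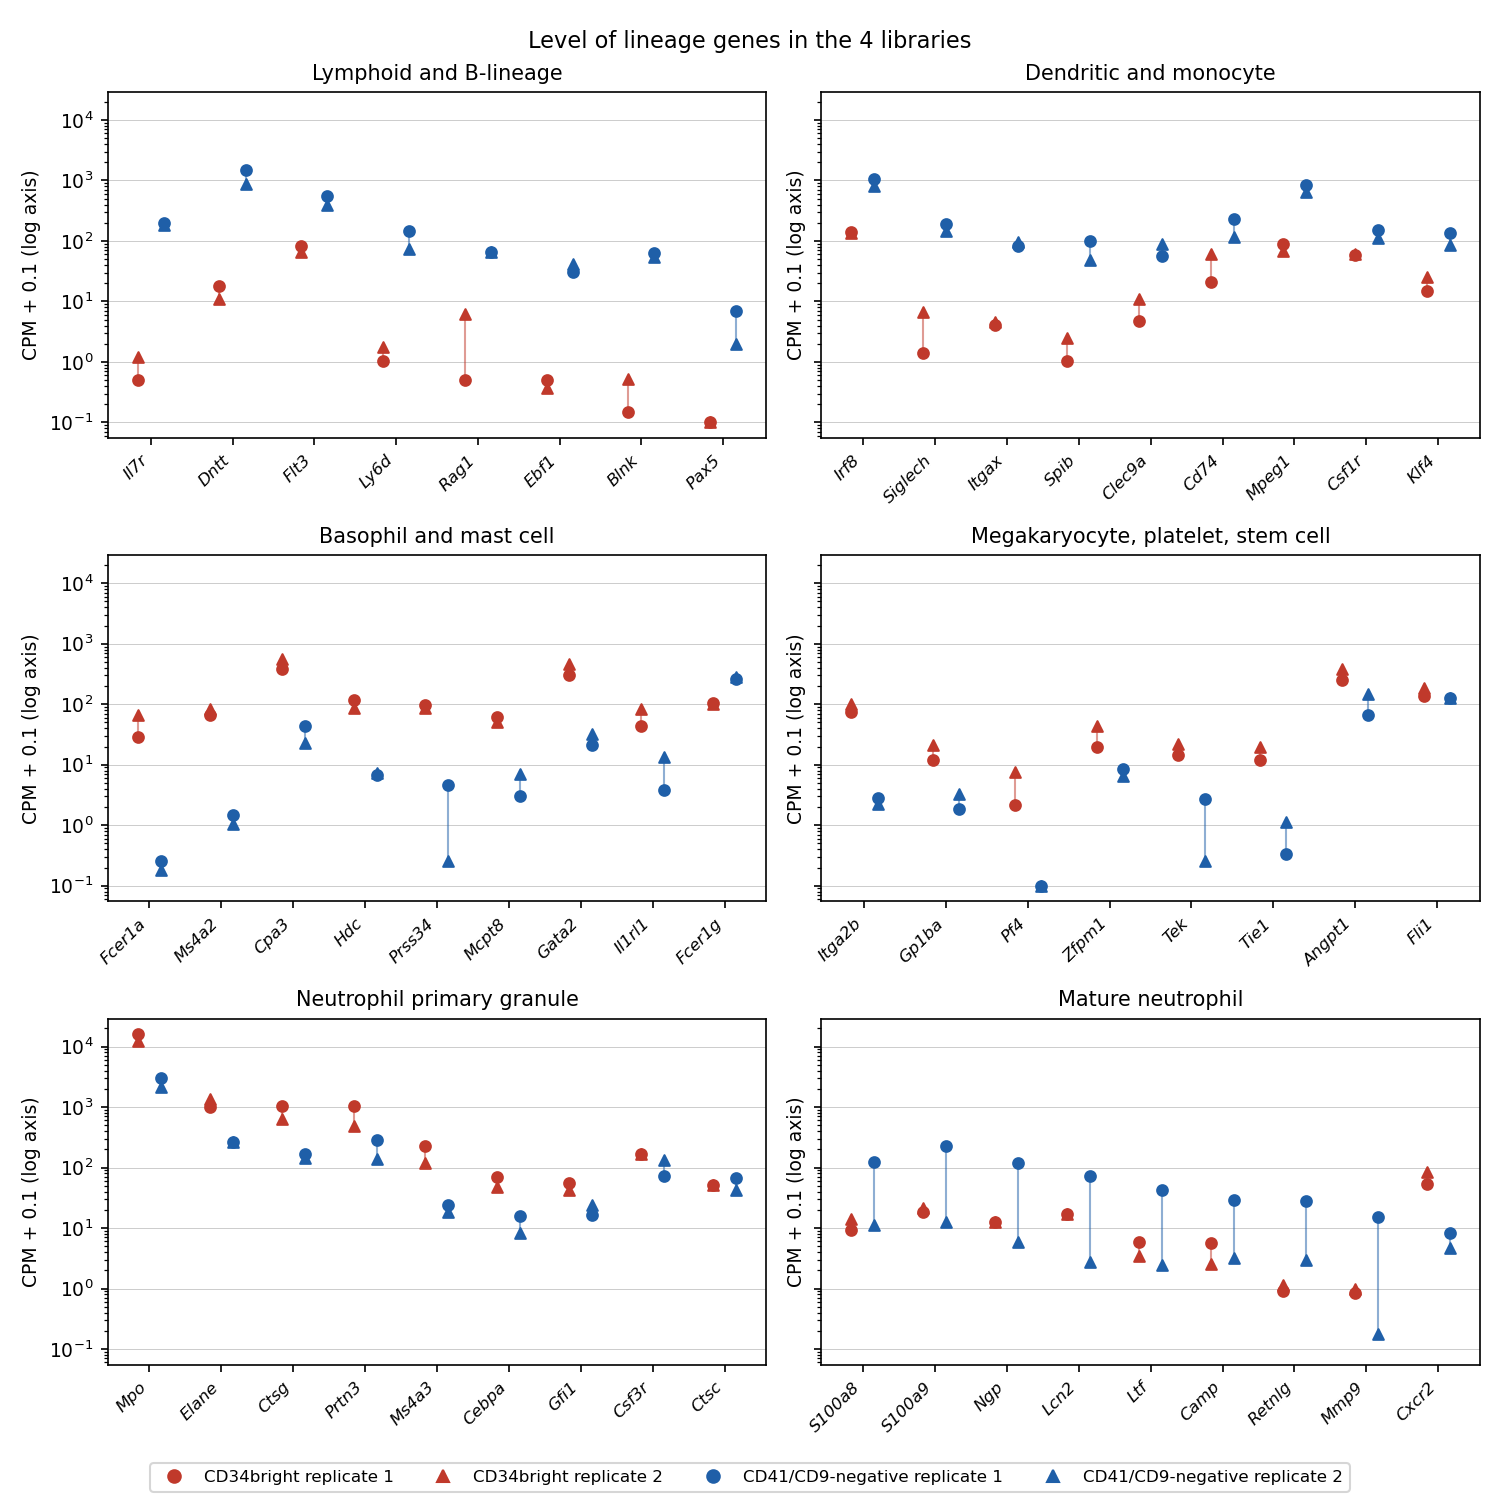
Points give the level of single genes in each of the 4 libraries as CPM + 0.1 on a log axis, red for CD34bright and blue for CD41/CD9-negative, circles for replicate 1 and triangles for replicate 2, joined within a population. Of the genes drawn, lymphoid, dendritic and monocyte genes sit higher in blue. The basophil, megakaryocyte and granule genes drawn sit higher in red, except Fcer1g and Ctsc. Most mature neutrophil genes are high in 1 library, where S100a9 reached 223 CPM. The genes drawn are a chosen part of the lists. Members called the other way (Fcnb, Ly6a) and members not called (such as Vwf and Vpreb1) are left out.

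Megakaryocyte and platelet genes were higher in CD34bright cells in part. Of 28 members, 23 were tested and 13 called higher there, with none called in the other direction and a median log2 fold change of 1.78. The called share was 56.5% of those tested, beside 8.7% of all tested genes. The list holds the sort genes Itga2b and Cd9, whose difference follows from the gates. The 13 calls and the median include both. Only Itga2b and Rab27b were called over all 8 libraries. Gp1ba, a chain of the platelet receptor for von Willebrand factor, was at 12 and 21.3 CPM in CD34bright libraries and at 1.76 and 3.22 CPM in CD41/CD9-negative libraries (2.73 ± 0.56, adjusted p = 0.00368, and 0.124 over all 8 libraries), and F2r, a thrombin receptor, at 64.3 and 117 CPM against 22.1 and 20.8 CPM. These receptors were detected in both populations. Pf4, the platelet chemokine, had no count in CD41/CD9-negative libraries and 2.1 and 7.53 CPM in CD34bright libraries (at least 41.4-fold). Treml1, of platelet granules, was likewise at 0 against 2.3 and 4.56 CPM (at least 29.5-fold). Without CD34bright replicate 2, the calls of Gp1ba, Pf4, Treml1, Rab27b, Gp9, P2rx1 and Zfpm1 were lost (adjusted p = 0.103, 0.129, 0.105, 0.0608, 0.227, 0.0553 and 0.193), and without CD34bright replicate 1 that of Nfe2 (0.0642). Of late platelet genes, Gp6 and Tubb1 had no count and Ppbp at most 0.5 CPM. Vwf at 2.1 and 3.66 CPM against 3.14 and 2.2 CPM and Fli1 at 139 and 186 CPM against 124 and 128 CPM were not called.

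Stem cell genes were called in a smaller share. Of 26 members, 24 were tested, 6 were called higher in CD34bright cells and 1, Ly6a, higher in CD41/CD9-negative cells (median 0.72). The receptor kinases Tek (14.2 and 21.7 CPM against 2.6 and 0.157 CPM) and Tie1 (12 and 19.8 CPM against 0.23 and 1.02 CPM) and Angpt1, a ligand of the former (249 and 387 CPM against 65.4 and 146 CPM) were among the 6. Tie1 was the member called over all 8 libraries (adjusted p = 0.0291, against 0.000268 over 4). Myct1 was at 55.2 and 60.6 CPM against 2.14 and 15.3 CPM (2.73 ± 0.57). Hlf, at 141 and 226 CPM against 66.9 and 218 CPM, and Hoxa9, at 28.5 and 42.4 CPM against 40.1 and 35.9 CPM, overlapped between populations and were not called. Pdzk1ip1 lost its call without CD34bright replicate 1 (adjusted p = 0.418), and Ly6a without CD34bright replicate 2 (0.23) or CD41/CD9-negative replicate 1 (0.396). DESeq2 did not call Myct1 (adjusted p = 0.129). Endothelial and stromal markers were mixed, with 7 of 12 tested, Kdr and Cxcl12 called higher in CD34bright cells and Cdh5 in CD41/CD9-negative cells. Cdh5, which encodes VE-cadherin, was at 0.05 and 0 CPM against 12.1 and 4.64 CPM (adjusted p = 0.000218, and 0.0886 over all 8 libraries), a ratio of 290.3 with an exact 95% counting interval of 51.5 to 11520, since CD34bright libraries held 1 count. Kdr lost its call by limma-voom (adjusted p = 0.0645), without CD34bright replicate 2 (0.564) and without CD41/CD9-negative replicate 2 (0.0968), and Cxcl12 without the latter (0.0544). Col3a1 had no count, Lepr was near 0, and the summed level of this list was 205.6 and 216.0 CPM against 255.8 and 273.8 CPM.

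Erythroid genes gave no single direction. Of 22 members, 21 were tested, with 1 called higher in CD34bright cells and 4 in CD41/CD9-negative cells. The first was Gata1, at 24.1 and 22.5 CPM against 8.42 and 1.26 CPM (2.27 ± 0.61, adjusted p = 0.0248). The others were Tfrc, the transferrin receptor that imports iron, at 109 and 107 CPM against 594 and 777 CPM (-2.67 ± 0.3), the carbonic anhydrase Car1 at 34.1 and 50.4 CPM against 284 and 293 CPM (-2.77 ± 0.3), Ermap and Ank1. Summed haemoglobin was 6.75 and 25.9 CPM in CD34bright libraries and 14.2 and 22.4 CPM in CD41/CD9-negative libraries, and no globin gene was called. The median of the list was -0.36 and became 0.31 without CD34bright replicate 1. Klf1, the erythroid Krüppel-like factor, was at 9.29 and 14.6 CPM against 11.6 and 5.03 CPM, and Epor at 3.95 and 9.05 CPM against 4.21 and 3.46 CPM, neither called.

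**Figure D4:**
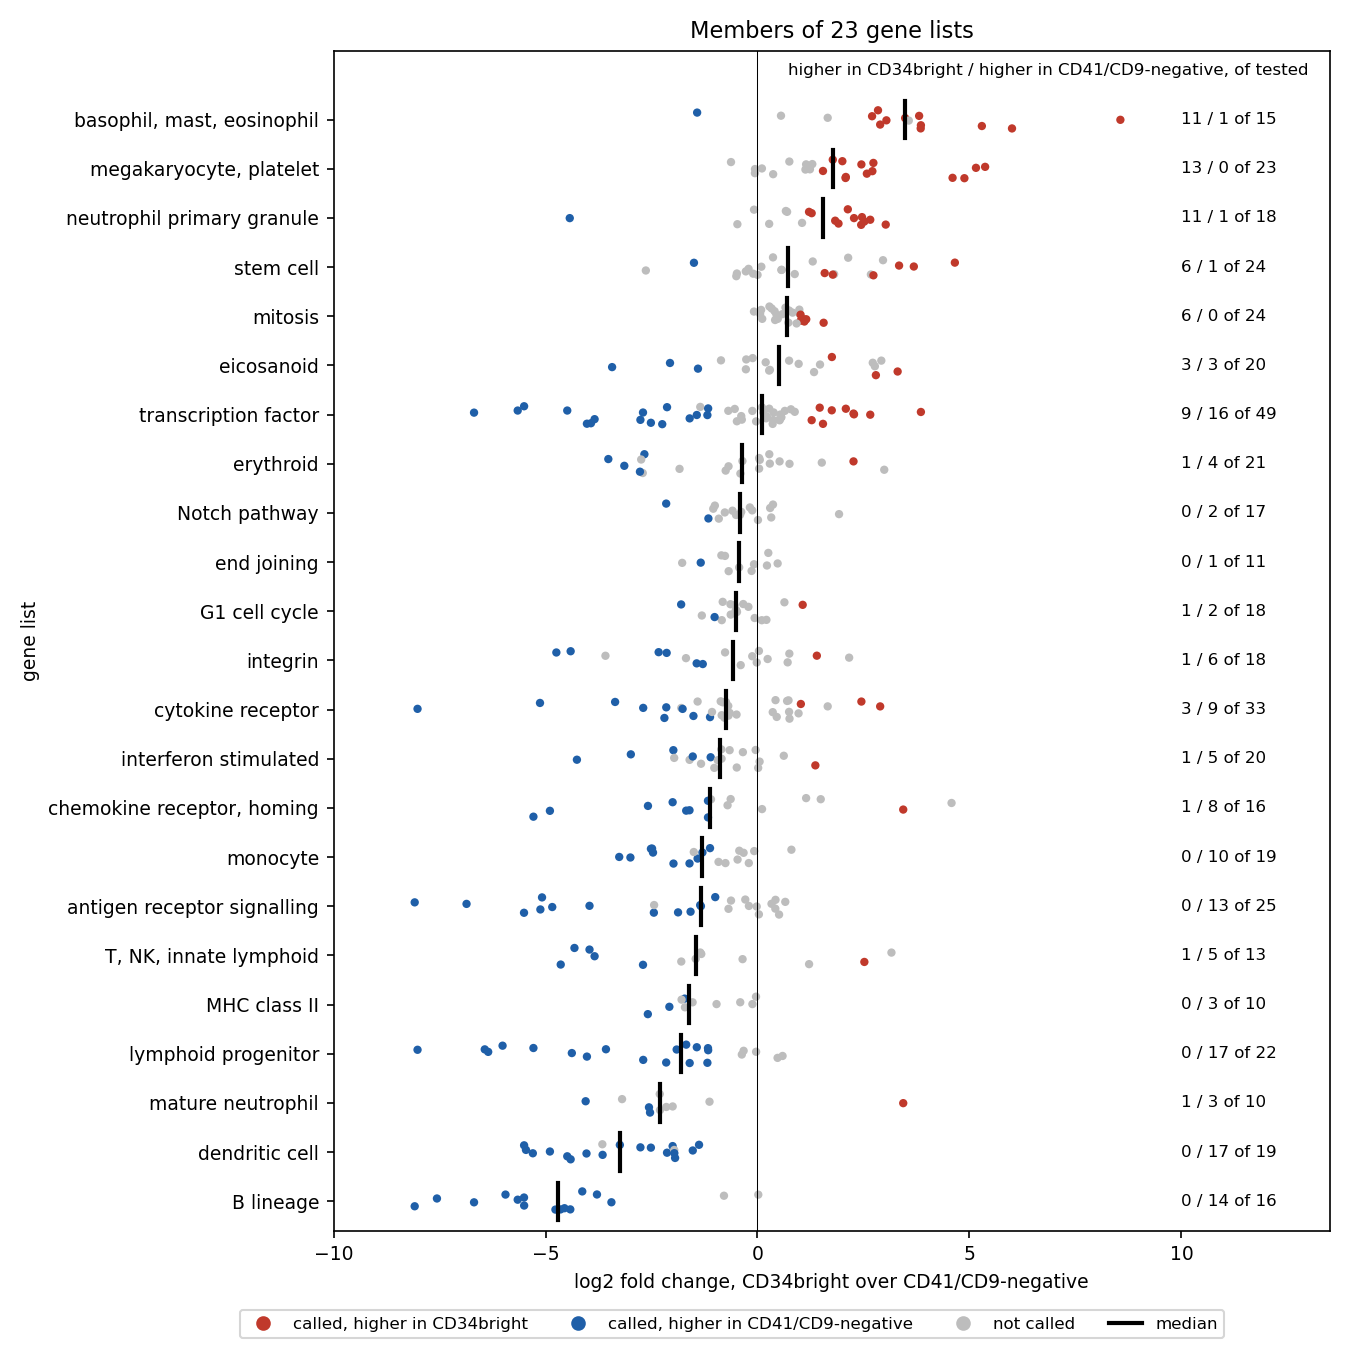
Each row is a gene list, each point a tested member placed by its log2 fold change, CD34bright over CD41/CD9-negative (genes with no count in one population at their bound), and the black bar is the median. The B-lineage list has its median at -4.71 and the basophil, mast cell and eosinophil list at 3.48, and the numbers at the right count the members called in each direction.

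Transcription factors divided between the populations. Of 50 members, 49 were tested, 9 called higher in CD34bright cells and 16 in CD41/CD9-negative cells, with a median of 0.10, and 4 (Gata2, Ebf1, Spib and Runx2) were also called over all 8 libraries. Gata2 was at 310.0 and 468 CPM in CD34bright libraries and at 21.3 and 32.5 CPM in CD41/CD9-negative libraries (3.85 ± 0.34, adjusted p = 1.13e-06). Its haematopoietic partners Tal1 (95.8 and 118 CPM against 28.6 and 34.8 CPM) and Zfpm1, which encodes FOG1 (19.9 and 43 CPM against 8.5 and 6.29 CPM), were called with it, whereas Lmo2 (334 and 348 CPM against 176 and 260.1 CPM) and Ldb1 (94.9 and 89.2 CPM against 107 and 133 CPM) were not. Gata3 was at 2.3 and 2.42 CPM against 8.42 and 3.62 CPM and was not called, so of the GATA genes listed Gata1 and Gata2 were called and Gata3 was not. On the other side stood Irf8, which directs monocyte and dendritic fate, at 139 and 137 CPM against 1075 and 799 CPM (-2.76 ± 0.31, adjusted p = 1.4e-05, and 0.194 over all 8 libraries). Irf4 was at 0.25 and 2.62 CPM against 42.7 and 19.6 CPM, and Tcf4, the E protein of plasmacytoid dendritic cells, at 117 and 142 CPM against 469.9 and 665 CPM (-2.13 ± 0.3).

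Families were split among their members. In the RUNX family Runx2 was at 239 and 282 CPM against 1494 and 1484 CPM (-2.52 ± 0.32, adjusted p = 4.42e-05), while Runx1 at 432 and 649.6 CPM against 428 and 499 CPM and Runx3 at 113 and 189 CPM against 146 and 116 CPM were not called. In the Ikaros family Ikzf1 (483 and 549 CPM against 1153 and 1187 CPM) and Ikzf3 (0.849 and 0.829 CPM against 13 and 14.6 CPM) were higher in CD41/CD9-negative cells and Ikzf2 (242 and 253 CPM against 71.5 and 107 CPM) in CD34bright cells. The calls of Ikzf1, Cebpe, Gfi1, Zfpm1, Nfe2, Bcl11a and Foxo1 were lost without at least 1 of the libraries, as given with their lists. Of the inhibitors of DNA binding, Id2 (1.5 and 4.77 CPM against 20.0 and 20.4 CPM) and Id3 (0.55 and 0.484 CPM against 9.57 and 6.45 CPM) were called higher in CD41/CD9-negative cells and Id1 was not called. Spi1, which encodes PU.1, was at 97.2 and 151 CPM against 111 and 59.6 CPM and Myb at 1253 and 1289 CPM against 839 and 1113 CPM, both not called and Spi1 overlapping between populations. The log2 fold change of Spi1 was 0.53 ± 0.33.

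**Figure D5:**
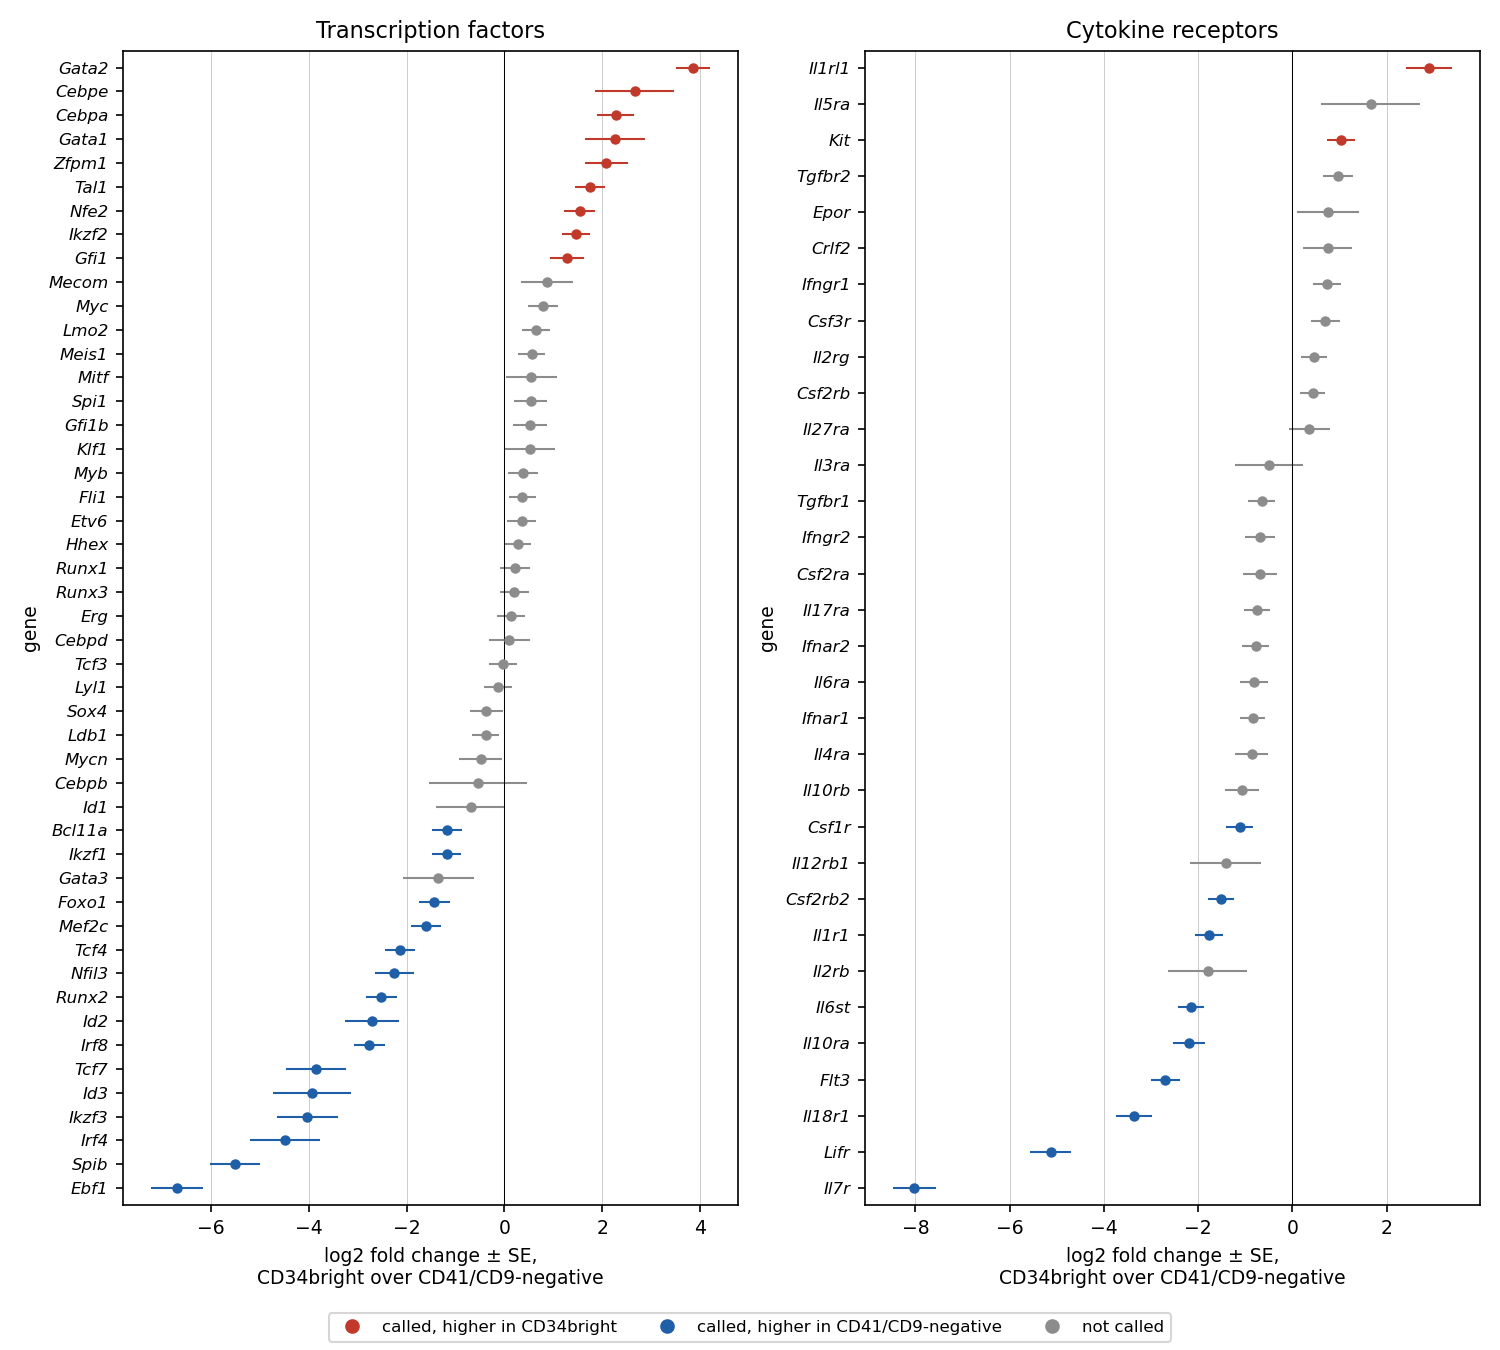
Points give the log2 fold change, CD34bright over CD41/CD9-negative, with bars of 1 standard error, for tested transcription factors (left, without Pax5, which had no count in one population) and cytokine receptors (right), leaving out members not reported here. Gata2 stands highest at 3.85 and Ebf1 lowest at -6.69 on the left, Il1rl1 highest at 2.89 and Il7r lowest at -8.02 on the right.

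Cytokine receptors called in CD34bright cells included those for interleukin 33 and stem cell factor. The latter, Kit, is a gate of both populations, and its call was lost in other fits as given above. It was also lost by edgeR with library totals only (adjusted p = 0.0725). Of 34 members, 33 were tested, 3 were called higher in CD34bright cells and 9 in CD41/CD9-negative cells (median -0.74), 5 of them also over all 8 libraries. Il1rl1, the interleukin 33 receptor, was at 44.3 and 81.9 CPM against 3.75 and 13.2 CPM (2.89 ± 0.49, adjusted p = 0.000679). Besides Il7r and Flt3, the receptors higher in CD41/CD9-negative cells included Lifr, for leukaemia inhibitory factor, at 1.3 and 2.62 CPM against 69.5 and 66.3 CPM (-5.13 ± 0.43, adjusted p = 6.08e-07). Its signalling partner Il6st, or gp130, was at 89.8 and 88.4 CPM against 431 and 360.4 CPM (-2.15 ± 0.29), while Il6ra was at 51.1 and 64.1 CPM against 114 and 89.2 CPM and was not called. Il18r1 was at 4.7 and 5.94 CPM against 63.9 and 45.1 CPM and Il10ra at 10.8 and 15.3 CPM against 58 and 61.6 CPM. In none of these receptors did the populations overlap, which was also so in 51.8% of all tested genes. Csf2rb2 was called (57 and 49.5 CPM against 152 and 152 CPM) and its close copy Csf2rb was not (221 and 219 CPM against 179 and 149 CPM), and reads of this pair can be divided between them.

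Homing and adhesion genes were called mainly in CD41/CD9-negative cells. Of 17 chemokine receptor and homing genes, 16 were tested, 8 were called higher there and 1, Cxcr2, in CD34bright cells (median -1.13). Ccr2, Ccr7, Ccr9, Cx3cr1, Gpr183 and Cxcr2 are also members of lists above, so these calls are not separate from those. Ccr2, the receptor for monocyte chemoattractants, was at 86.5 and 62.4 CPM against 250.3 and 203 CPM (-1.6 ± 0.29, adjusted p = 0.00133, and 0.77 over all 8 libraries). Ccr7, which guides cells to lymph nodes, was at 0.35 and 0.276 CPM against 18.6 and 6.68 CPM. Cxcr4, the marrow retention receptor, was at 78.6 and 109 CPM against 146 and 145 CPM and was not called (adjusted p = 0.193). Among 18 tested integrin genes outside the sort gate, Itga6 was called higher in CD34bright cells (231 and 224 CPM against 78.4 and 93.7 CPM, 1.4 ± 0.28) and 6 in CD41/CD9-negative cells. Those 6 were Itgax, the beta chains Itgb7 (25.5 and 21.7 CPM against 143 and 95.1 CPM) and Itgb2 (24.2 and 24.5 CPM against 59 and 60.1 CPM), Itgam, Itgad and Itga1. Itga1 overlaps Pelo and Itgad overlaps Cox6a2, so both levels are uncertain. Itgb2 lost its call without CD34bright replicate 1 (adjusted p = 0.112) or replicate 2 (0.0872), Itga1 without the former (0.0593) and Itgam without the latter (0.152). Among homing genes Selplg was not called without CD34bright replicate 1 (0.0595), CD34bright replicate 2 (0.15) or CD41/CD9-negative replicate 1 (0.0707). Itgb3, the partner chain of CD41, was at 53.2 and 47 CPM against 39.8 and 19.7 CPM and was not called (0.75 ± 0.36, adjusted p = 0.227).

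Lipid mediator genes were called on both sides. Of 22 eicosanoid genes, 20 were tested and 3 were called in each direction, together 30% of those tested, beside 8.7% of all tested genes. The enzymes Alox5 (19.1 and 25.6 CPM against 2.14 and 2.36 CPM), Ptgs1 (28.4 and 36.1 CPM against 5.28 and 4.01 CPM) and Pla2g4a (69.3 and 81.1 CPM against 21.8 and 22.7 CPM), which make leukotrienes, prostanoids and their arachidonate precursor, were higher in CD34bright cells. The receptors Tbxa2r (1.65 and 3.04 CPM against 29.7 and 20.5 CPM), Ptger2 (4.65 and 4.42 CPM against 23.1 and 14.9 CPM) and Ptger4 (31.6 and 35.6 CPM against 87.5 and 90.6 CPM), for thromboxane and prostaglandin E2, were higher in CD41/CD9-negative cells. Among the called genes, those that make a mediator were thus on one side and the receptors on the other, with none called over all 8 libraries. This split was described after the calls were seen and was not tested. Not every uncalled member followed it. The receptor gene Cysltr1 had a log2 fold change of 0.29 ± 0.85 and the enzyme gene Hpgds one of -0.27 ± 0.89. Alox5ap, at 249 and 182 CPM against 202 and 176 CPM, and Lta4h, at 172 and 110.4 CPM against 138 and 96.2 CPM, were not called. Ptger4 lost its call without CD34bright replicate 1 (adjusted p = 0.0714).

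Cell cycle genes differed modestly. Of 24 mitosis genes, 23 had a positive log2 fold change (median 0.69), beside 6225 of all 12428 tested genes. Mitosis genes can vary together, so these signs are not separate observations. Of the 24, 6 were called higher in CD34bright cells (25%, beside 3.03% of all tested genes) and none in the other direction. None of the 6 was called over all 8 libraries. Ccnb1, cyclin B1, was at 176 and 174 CPM against 88.6 and 73.8 CPM (1.11 ± 0.27, adjusted p = 0.0146), and Cdk1 at 127 and 99.6 CPM against 45 and 60.2 CPM (1.11 ± 0.3). Both lost the call without CD34bright replicate 1, at adjusted p = 0.0978 and 0.273, and so did Cdca8, Tpx2 and Ube2c (0.295, 0.202 and 0.0548). Without CD34bright replicate 2, Ccnb1, Tpx2 and Ube2c were not called (0.0814, 0.0883 and 0.253), and without CD41/CD9-negative replicate 2, Cdca8 and Tpx2 (0.0903 and 0.126). Mki67 was at 1919 and 2488 CPM against 1741 and 2412 CPM, overlapping, and was not called. Among 18 tested G1 genes Cdk6 was called higher in CD34bright cells (608 and 606 CPM against 348 and 232 CPM, adjusted p = 0.0327) and Ccnd1, cyclin D1, and Rb1, which overlaps Lpar6 and is uncertain in level, in CD41/CD9-negative cells. Together these were 16.7% of the tested G1 genes, beside 8.7% of all tested genes. Ccnd1 was at 29 and 56.2 CPM against 135 and 162 CPM (-1.8 ± 0.33, adjusted p = 0.00147). The calls of Cdk6 and Rb1 were lost on leaving out CD34bright replicate 1 (adjusted p = 0.116 and 0.41), CD34bright replicate 2 (0.0868 and 0.0856) or CD41/CD9-negative replicate 2 (0.21 and 0.0576).

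Of 25 Notch pathway genes, 17 were tested, and Notch1 and Maml3 were called higher in CD41/CD9-negative cells, a share of 11.8% beside the 8.7% of all tested genes. Maml3, a coactivator of Notch target genes, was at 71 and 97.6 CPM against 187 and 189 CPM (-1.16 ± 0.28, adjusted p = 0.013, and 0.275 without CD34bright replicate 1), while Notch2 was at 212 and 247 CPM against 339.7 and 259 CPM and Rbpj, the DNA-binding factor of the pathway, at 136 and 149 CPM against 191 and 238 CPM, neither called. The targets Hes1, Hes5, Hey1, Heyl and Dtx1 were too low to be tested. Of 20 interferon-stimulated genes, 5 were called higher in CD41/CD9-negative cells and 1, the GTPase gene Ifi47, higher in CD34bright cells (192 and 233 CPM against 99.1 and 65.8 CPM), together 30% of those tested. The first 5 were Ifi44, Mx2, Stat2, Bst2 and Mx1. RefSeq classes both Mx1 and Mx2 as transcribed pseudogenes in this genome. Mx1 was at 2.3 and 5.32 CPM against 35.1 and 24.9 CPM (-2.99 ± 0.48, adjusted p = 0.000453). Irf7, at 3 and 2.42 CPM against 9.42 and 7.08 CPM, was not called. Stat2 lost its call without CD34bright replicate 1 (adjusted p = 0.378).

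Further genes with the largest fold or level differences came from outside these groups. On the CD34bright side Slc7a8, an amino acid transporter, was at 95.4 and 121 CPM against 2.22 and 0.472 CPM (6.31 ± 0.51, adjusted p = 4.11e-07). The proteoglycan Bgn was at 8.39 and 13 CPM against 0.0766 and 0 CPM. Gpc3, also a proteoglycan, was at 11.8 and 7.53 CPM against 0.0766 and 0 CPM. The lower levels of Bgn and Gpc3 rest on 1 count each. The growth factor Fgf3 was at 10.3 and 17.5 CPM against 0.536 and 0.236 CPM. Genes of largest fold were taken only where libraries did not overlap, so their separation is no finding. Homer2, Phldb2, Gm14085 and Ptrf (not called by DESeq2, adjusted p = 0.181) completed the 12 with the largest folds. By difference in level, Adgrg1 (991 and 1117 CPM against 324 and 378 CPM), Calr, which encodes the chaperone calreticulin (1028 and 756 CPM against 304 and 246 CPM), Lars2, Ldha and the granule proteoglycan gene Srgn (912 and 1334 CPM against 472 and 495 CPM) joined the granule genes. Of these, Lars2 lost its call without CD41/CD9-negative replicate 2 (adjusted p = 0.0744), Srgn without CD34bright replicate 2 (0.197), and Ldha without either of those libraries (0.118 and 0.0895).

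On the CD41/CD9-negative side Cmah, the hydroxylase that makes N-glycolylneuraminic acid, was at 4.05 and 4.77 CPM against 491 and 388 CPM (-6.64 ± 0.36, adjusted p = 7.51e-09, and 0.00309 over all 8 libraries). Sema3d, a secreted semaphorin, was at 0.0999 and 0.0691 CPM against 20.1 and 26.7 CPM, and Gria2, a glutamate receptor subunit, at 0.05 and 0 CPM against 6.74 and 11.7 CPM. Tmtc1, Tmem56, Pacsin1 and Fcrla were also among the 12 largest folds, and Tmtc1 overlaps Rps4l, so its level is uncertain. By difference in level Ahnak was at 72.8 and 91.8 CPM against 887 and 751 CPM (-3.31 ± 0.32) and Kctd12 at 140.1 and 129 CPM against 654 and 685 CPM (-2.32 ± 0.29). Both were called over all 8 libraries, at adjusted p = 0.00672 and 0.0153.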

How the data were processed

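Bulk RNA sequencing was compared for 2 CD34bright and 2 CD41/CD9-negative libraries, grouped by the sort gate in the labels, because cluster numbers in the titles and in the design text differ. Per the labels' protocols, 5 ng of RNA was amplified with Ovation RNA-Seq V2 and 1 ug of cDNA entered unstranded libraries. Per the submitters' processing notes the mm10 build was used with RSEM 1.3.2, STAR 2.7.2a and edgeR 3.30.3. The authors deposited RSEM expected counts per gene, rounded here to whole numbers, and TPM values, which enter no test or printed level. The main test was edgeR 4.0.16 (R 4.3.3) with filterByExpr, TMM scaling and the quasi-likelihood F-test over the 4 libraries, with Benjamini-Hochberg adjustment over all tested genes at 0.05. Alternatives were DESeq2 1.42.0, limma-voom 3.58.1, other scalings and filters, leave-outs, a replicate block and fits with 6 or 8 libraries. Folds against a population at 0 use a floor of 3 counts over the population. Totals, and so the precision for low genes, differed by less than a factor of 2.

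Named genes were the sort genes, in each direction 12 called protein-coding genes of largest fold (mean of at least 8 CPM in the higher population, no overlap), 8 of largest CPM difference, up to 5 called genes per list by adjusted p, and further list members beside them. Members and lists were chosen with earlier results of these data known. Symbols were matched to RefSeq directly for 23194 genes and by synonym for 1096, and promoters of 316 of 376 and 533 of 705 called genes were found. On simulated counts for this comparison (12428 genes), the test recovered 12, 44, 50 and 50 of 50 genes changed 2-, 4-, 8- and 16-fold and called 8 others. The changed genes were drawn above a minimum mean level, so recovery of low genes was not measured. Each simulated gene had the spread of the trend at its level, with no outlying library, so the real counts may give fewer recoveries and more false calls. Some list members are counted but not reported here by name.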

Additional observations from a re-analysis of the deposited data

How the results depend on the processing

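The count of called genes (1081, of which 376 had the higher level in CD34bright cells and 705 the lower) was 111 with all 8 libraries (35 and 76) and 266 (101 and 165) with a replicate block added to that fit. With 6 libraries, without CD48dim, 230 genes were higher in CD34bright cells, with a replicate block over the 4 libraries 593, and without a filter on low counts 573. The deviations of same-numbered libraries correlated at 0.158 over 2 pairs, and whether a number marks a shared sort or animal is not known. DESeq2 (1371), limma-voom (1175), DESeq2 size factors (1076), library totals (1125, median shift -0.09) and a stricter filter (1050) stayed within 1.5 times the main count. Leaving out 1 library gave 692 to 2111 calls, with 233 to 1040 of the first kind and 459 to 1071 of the second, and the cause was not tested. Leaving out 1 library moved the log2 fold change of S100a8 from -3.41 to 0.057 and that of S100a9 from -3.48 to 0.68, the positive values without CD41/CD9-negative replicate 1. Of 195 called genes that were named or belong to a list, 51 were called with all 8 libraries, 192 with the block over 4 (not Kdr, S100a8 and S100a9, at adjusted p = 0.0844, 0.144 and 0.26), 187 by DESeq2 and 190 by limma-voom, and 159 to 186 when 1 library was left out. Genes below about 1 CPM rest on few counts.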

Other observations

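Of the tested genes, 53 had no count in one population. The called ones were 25 at 0 in CD34bright and 21 at 0 in CD41/CD9-negative libraries. The examples here were chosen after their values were seen. Such a gene passed the filter on low counts only through the other population, so its direction was fixed beforehand and is no finding. The same holds for Pax5, Zap70, Pf4, Treml1 and Cxcl12 above. Genes with few counts in a population likewise passed only through the other, among them Il7r, Blnk, Ebf1, Rasgrp3, Fcer1a, Sema3d, Bgn, Gpc3, Cdh5 and Gria2. Their direction is no finding either, and the counts of called list members include such genes. Among those listed at 0 in CD34bright libraries, Lgr5, a receptor for R-spondins known from epithelial stem cells, was at 4.14 and 4.09 CPM in CD41/CD9-negative libraries (at least 47.3-fold higher). Colq, which anchors acetylcholinesterase, was at 4.75 and 6.13 CPM (at least 62.5-fold), and Cd8a, carried by cytotoxic T cells and some dendritic cells, at 1.84 and 3.46 CPM (at least 30.4-fold). Tnfsf11, the ligand that drives osteoclast formation, was at 4.29 and 1.1 CPM (at least 31-fold).

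Among those at 0 in CD41/CD9-negative libraries, Cyp11a1, which starts steroid synthesis, was at 2.5 and 6.08 CPM in CD34bright libraries (at least 36.9-fold higher). Il4, the cytokine made by basophils and helper T cells, was at 1.8 and 0.829 CPM (at least 11.3-fold), and Kcnj5, a potassium channel gene, at 4.3 and 3.8 CPM (at least 34.8-fold). Sdpr, a caveolar protein gene, was at 1.85 and 13.8 CPM (at least 67.3-fold), with the CD34bright libraries far apart. Sdpr and Kcnj5 were also called over all 8 libraries, at adjusted p = 0.0449 and 0.0458 by edgeR's quasi-likelihood test.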
